A study of Macaca fascicularis with 64 samples.

Results

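The α-cells of pancreatic islets from cynomolgus monkeys were compared by how strongly each cell expressed immediate-early genes. An α-cell was a cell with over 800 macaque genes and over 10000 UMIs, spike-ins included (unique molecular identifiers, which count cDNA molecules) in which GCG, the glucagon gene, was the highest of the 4 hormone genes GCG, INS, SST and PPY, reached at least 20000 CPM (the UMIs of a gene when those of all macaque genes of the cell are scaled to 1000000) and was at least 2 times the second. By this rule 4401 of the 5908 cells that passed the gene and UMI thresholds were α-cells, with 165 to 359 per animal. Within each animal they were ranked by the mean of log2(CPM/10 + 1) of FOS, JUNB, EGR1, ATF3, NR4A1 and NR4A3, and cut into 3 sets of nearly equal size, of which the high set (1462 cells) was compared with the low set (1462 cells). The rule also named JUN, but no row of the count tables carries that symbol, so the score rests on 6 of 7 genes. Whether JUN is among the genes held by Ensembl identifier only, which were not left out of the tests, was not determined. The groups were thus selected on measured values of these 6 genes, which were left out of every test between the sets.

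The cells came from 16 healthy animals without treatment: 4 young females (YF1 to YF4), 4 young males (YM1 to YM4), 4 old females (OF1 to OF4) and 4 old males (OM1 to OM4). Each animal gave 4 of the 64 libraries. The tail part of the pancreas was digested with collagenase V, islets were picked by hand, cells were separated with Accumax at 37 °C, debris was removed by sorting with propidium iodide, and single cells were picked by mouth pipette into lysis buffer for a modified STRT protocol. One animal was taken per day, so that animal and day cannot be told apart. Every comparison of the sets was made within an animal, with the animal as the replicate (n = 16).

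Immediate-early genes are switched on within minutes of a stimulus without the need for new protein, through kinase cascades (MAPK, cAMP and calcium signals) that act on transcription factors already present. Many encode transcription factors, such as the AP-1 proteins FOS and JUNB, the zinc finger protein EGR1, the stress-linked factor ATF3 and the orphan nuclear receptors NR4A1 and NR4A3, and others encode phosphatases and RNA-binding proteins that end the signal. In islet cells they respond to membrane depolarization, calcium and cAMP, and in many tissues the enzymatic separation of cells also raises them. α-cells secrete glucagon, which raises blood glucose between meals.

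The genes that chose the cells are described first, without a test. The mean score of a set was lowest at 1.48, had a median of 2.58 and reached 3.29 over the 16 animals in the low set, and was 2.97, 4.03 and 4.57 in the high set. FOS had a median of 669.9 CPM in the low and 1872 CPM in the high set, with 1223 CPM in the middle set. EGR1 had 445 and 1160 CPM. NR4A1 had 382 and 1025 CPM. These 3 genes were found in nearly all α-cells: at least 1 UMI was present in a median of 99.0% (FOS), 100% (EGR1) and 98.1% (NR4A1) of the cells of the low set, so that the sets differed in the level of these genes rather than in their presence. The other 3 genes were sparse. JUNB was detected in a median of 6.63% of the cells of the low and 47.4% of the cells of the high set, ATF3 in 10.4% and 49.0%, and NR4A3 in 1.01% and 10.3%.

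Across the single cells of an animal the genes of the score were weakly correlated, given here as a description over cells that share library and depth. The median Spearman correlation over the 16 animals was 0.36 for FOS and EGR1 (0.16 to 0.50), 0.31 for EGR1 and NR4A1 and 0.30 for FOS and NR4A1, and 0.02 to 0.18 for the pairs that contain a sparse gene. The sets met without a gap. In OM3, the animal with the lowest scores, the last cell of the low set scored 1.850 and the first of the middle set 1.854. In OM4, the animal with the highest scores, these values were 3.635 and 3.638, and the first cell of the high set scored 4.150 next to 4.143.

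The animals differed widely in level, and the ranking was made inside each of them. The median score of all α-cells of an animal ran from 2.12 in OM3 to 3.90 in OM4, and the mean of the high set of OM1 and of OM3 (2.97 and 3.05) lay below the mean of the low set of 4 other animals. Young animals had median scores of 2.72 to 3.84 (median 3.42) and old animals of 2.12 to 3.90 (median 3.11), and these ranges overlapped. None of the 6 genes passed the test between old and young animals when all α-cells of an animal were summed (edgeR's quasi-likelihood test over 12811 genes). The adjusted p ranged from 0.761 for JUNB (log2 fold change -0.89 ± 0.45, SE) to 0.961 for NR4A1 (-0.13 ± 0.34).

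**Figure D1:**
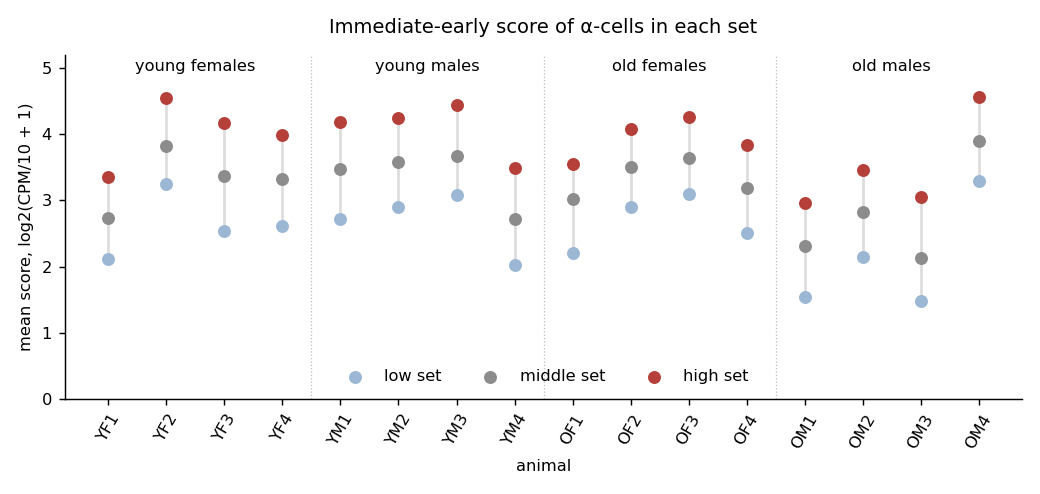
Mean immediate-early score, in log2(CPM/10 + 1), of the low, middle and high set of the α-cells of each of the 16 animals (x axis, 4 young females, 4 young males, 4 old females and 4 old males); the grey line joins the sets of an animal. The sets were cut on this score, so their order is fixed, while the level moves between animals: OM1 and OM3 have high sets at 2.97 and 3.05, and OM4 has a low set at 3.29.

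The depth and the makeup of the cells were compared before the genes. α-cells held a median of 64894 UMIs of macaque genes alone (2223 to 439214, the lowest below the threshold of 10000 because that counted spike-in UMIs too), and the UMIs summed over a set of an animal were 3366309 to 9458352. High cells were slightly deeper and held more genes. The median UMI number per cell was 28760.5, 61237 and 88134.5 in the low set (lowest, median and highest animal) and 53738, 64285 and 100127 in the high set. It was higher in the high set in 12 of 16 animals (mean log2 difference 0.16 ± 0.24, SD, adjusted p = 0.0115, exact sign-flip permutation test, two-sided, adjusted over 9 measures). The number of detected genes was a median of 4280 in the low and 4532 in the high set and was higher in 16 of 16 animals (adjusted p = 0.000275, same exact test). With every cell thinned to 10000 UMIs it was 2367 and 2448, higher in 15 of 16 animals (adjusted p = 0.000275, same exact test). The 2 sets overlapped over animals in each of these measures.

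The share of spike-in UMIs (a median of 5.19% in the low and 5.18% in the high set, adjusted p = 0.261, same exact test) and of mitochondrial transcripts (3.30% and 3.12%, adjusted p = 0.729, same exact test) did not pass the test. YM3 stood apart from the other young animals in depth: its low set held 28760.5 UMIs and its high set 53738, a log2 difference of 0.90, where the other 7 young animals lay between -0.13 and 0.20. Without YM3 the high set still held more genes at equal depth (mean log2 difference 0.0717). Along the whole ranking the score had a median within-animal Spearman correlation of 0.09 with UMIs, 0.15 with detected genes, -0.03 with the spike-in share and -0.0001 with the mitochondrial share. The correlation was largest in size with the ratio of GCG to the next hormone, at -0.17 (-0.30 to -0.07 over the animals). It was -0.11 with GCG and 0.09 with INS.

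Hormone genes moved with the ranking. Median GCG per cell was 67518, 85917 and 143577 CPM in the low set (lowest, median and highest animal) and 63455, 78813 and 98961 CPM in the high set. It was lower in the high set in 12 of 16 animals (mean log2 difference -0.14 ± 0.18, SD, adjusted p = 0.00566, exact sign-flip test). INS, the insulin gene, was 5351 CPM in the low and 5556 CPM in the high set at the median and higher in 14 of 16 animals (mean log2 difference 0.23 ± 0.23, adjusted p = 0.00146, same exact test). PPY, which encodes pancreatic polypeptide, was 212 and 282 CPM and higher in 15 of 16 animals (adjusted p = 0.00566, same exact test). Its mean log2 difference was 0.96 ± 1.29 (SD). That mean includes YF2 (0 to 18.8 CPM, a difference of 4.31) and YM3 (0 to 8.30 CPM, 3.22), where the low-set median was 0 CPM. SST, the somatostatin gene, did not pass (215 and 248 CPM, adjusted p = 0.911, same exact test). It was higher in the high set in 11 of 16 animals, with a mean log2 difference of 0.08 ± 2.49 (SD). In OF1, OF4 and OM1 the low-set or high-set median of SST was 0 CPM, with differences of -6.57, -3.70 and 5.43. With sets drawn within libraries the mean SST difference was 0.699 (unadjusted p = 0.000183, same exact test). On the sums tested with edgeR, over all cells of a set, none of the 4 passed with the adjustment over 11163 genes: GCG -0.19 ± 0.05, adjusted p = 0.104, INS 0.14 ± 0.05, adjusted p = 0.355, PPY 0.49 ± 0.14, adjusted p = 0.197 and SST 0.18 ± 0.09, adjusted p = 0.558 on the log2 scale. GCG passed without YM3 (-0.13, adjusted p = 0.000383) and in 6 other alternatives (adjusted p = 1.29e-05 to 0.0475). PPY passed in 4, with no filter on low counts (adjusted p = 0.00562), in thinned cells (0.00103), with 6 sets (0.00553) and under the NR4A score (0.00433). INS passed in 2, without TMM scaling (0.0335) and in thinned cells (0.047).

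Markers of the cell types were summed for each set. The 7 α-cell markers had 129220 to 202264 CPM in the low and 121517 to 192954 CPM in the high set, lower in the high set in 13 of 16 animals. The 10 β-cell markers, insulin among them, had 1511 to 14329 and 2082 to 14123 CPM and were higher in the high set in 13 of 16 animals. The 4 PP-cell markers had 26.7 to 3460 and 58.4 to 5305 CPM, higher in 14 of 16 animals, and the 6 δ-cell markers 104.9 to 1475 and 111 to 2001 CPM, higher in 11 of 16. The 8 endothelial markers had a median of 4.09 CPM in the low and 8.48 CPM in the high set, were higher in the high set in 12 of 16 animals, and reached 14.9 and 260 CPM in the highest animal. The 9 stellate markers had medians of 12.4 and 13.1 CPM and the 9 of 10 immune markers held by the files 30.0 and 35.6 CPM, each list higher in the high set in 11 of 16 animals. The 6 acinar markers held, of 12 listed, had medians of 1.501 and 1.861 CPM, were higher in 11 of 16 animals, and reached 6505 CPM in the low set of 1 animal, where immune markers reached 3945 CPM in 1 animal. The other lists (3 ε-cell, 8 duct, 5 Schwann and 5 cycling markers) were higher in the high set in 8 to 10 of 16 animals. None of the held markers was at 0 over all cells. The part of other cells' RNA in the differences below was not tested. A repeat in α-cells of higher hormone purity cannot decide it, because INS and PPY remained higher in the high set there. In those cells INS differed by 0.271 and PPY by 0.912 on the log2 scale (unadjusted p = 0.000519 and 0.00616, exact sign-flip test). UMIs per cell differed by 0.297 (unadjusted p = 0.00513, same exact test).

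**Figure D2:**
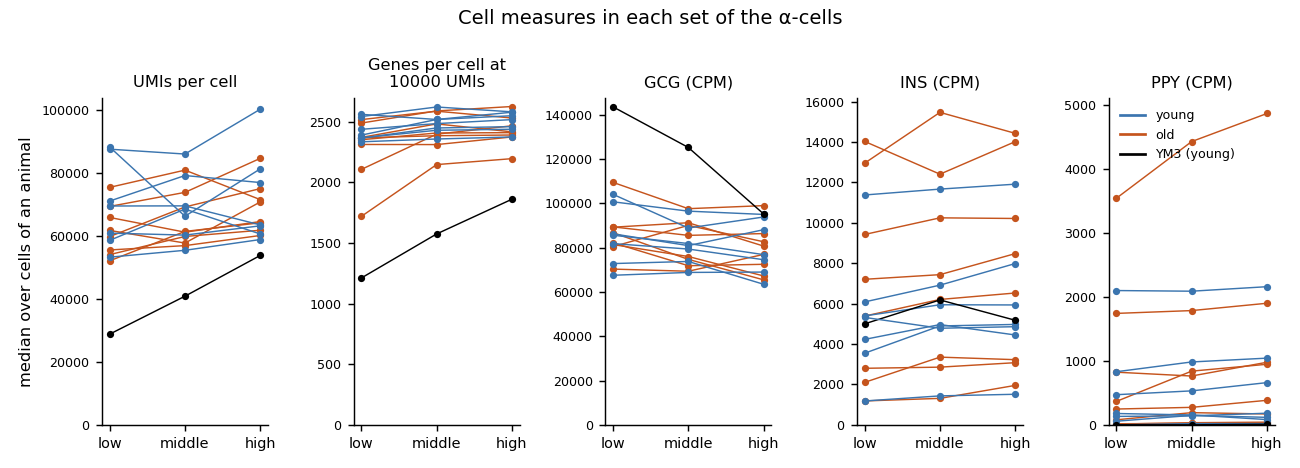
Median over the α-cells of each animal of UMIs per cell, detected genes per cell at 10000 UMIs, and GCG, INS and PPY in CPM (y axes, linear from 0), in the low, middle and high set (x axes); each line is 1 animal, blue young, orange old and black YM3. INS rises from low to high in 14 of 16 animals and GCG is lower in the high set in 12 of 16, while YM3 (143577 to 95197 CPM of GCG) is lowest in UMIs and in genes.

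UMI counts were then summed over the cells of a set in each animal and tested gene by gene (edgeR's quasi-likelihood test with the animal as a block, Benjamini-Hochberg adjustment over 11163 genes, threshold 0.05). Between high and low α-cells 50 genes rose, 0.448% of those tested, and 5 fell, 0.0448%. The other immediate-early genes led the rise. Of the 50 genes, 16 were higher in the high set in 16 of 16 animals and the fewest animals for any was 12. In 49 of the 50 the median of the middle set lay between those of the low and the high set, and so it did for all 5 genes that fell. The median log2 fold change of all genes tested was 0.01, with 5809 positive and 5354 negative. Without the animal as a block no gene passed (edgeR's quasi-likelihood test, 476 genes at an unadjusted p under 0.05).

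Of the transcription factors of the immediate-early class, 11 rose. Of 32 listed genes besides those of the score, 31 were held by the files and 23 were tested: 11 rose, 12 were not called and none fell. A gene can reach the filter on low counts through the high set alone, which favours a positive sign, so signs and medians of the lists of immediate-early and stress genes are given for the members that reached it in the low set alone. These were 17 here, of which 9 rose and 17 were positive, with a median log2 fold change of 0.90, and 8717 over all genes, of which 48.5% were positive, with a median of -0.0069. NPAS4, a factor induced by calcium entry, had 0.761, 35.9 and 205 CPM in the low set (lowest, median and highest animal) and 3.69, 116 and 396 CPM in the high set (log2 fold change 1.70 ± 0.21 (SE), adjusted p = 1.90e-05, higher in 16 of 16 animals). FOSB, an AP-1 protein of the FOS family, had 0.823, 47.6 and 199 CPM and 10.8, 133 and 381 CPM (log2 fold change 1.61 ± 0.18 (SE), adjusted p = 3.84e-06, higher in 15 of 16 animals). NR4A2, an orphan nuclear receptor of the same family as NR4A1, had 27.7, 95.8 and 350.1 CPM and 83.4, 234 and 534 CPM (log2 fold change 1.40 ± 0.16 (SE), adjusted p = 3.84e-06, higher in 16 of 16 animals). For each of the 3 genes the ranges of the sets overlapped over animals, while the pairs of 1 animal moved the same way with a single exception, FOSB in OF2. The medians of the middle set were 61.9, 89.4 and 148 CPM.

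The 3 other EGR genes, which encode zinc finger factors of the same family as EGR1, rose as well. EGR4 had 0.770, 24.2 and 95.4 CPM in the low and 15.8, 71.4 and 217 CPM in the high set (log2 fold change 1.66 ± 0.22 (SE), adjusted p = 3.62e-05, higher in 16 of 16 animals). EGR3 had the largest log2 fold change of all genes that passed, 2.06 ± 0.36, adjusted p = 0.00264, from a median of 4.11 CPM in the low set to 31.2 CPM in the high set, higher in 15 of 16 animals. EGR2 went from a median of 20.3 CPM in the low set to 44.3 CPM in the high set (1.24 ± 0.25, adjusted p = 0.0139, 14 of 16 animals). EGR3 and NPAS4, with ADM and DUSP2 below, reached the filter on low counts only through the high set, so their place among the tested genes depends on the difference itself. The remaining 46 rising genes reached it in the low set alone.

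The other rising members of the list belong to several families. HES1, a repressor known as a target of Notch, went from a median of 20.2 CPM in the low set to 49.8 CPM in the high set (1.15 ± 0.21, adjusted p = 0.00471, higher in 14 of 16 animals). KLF6, a Krüppel-like factor, rose from a median of 10.4 CPM in the low set to 25.6 CPM in the high set (1.00 ± 0.19, adjusted p = 0.00827). CSRNP1, a nuclear protein first known as a target of AXIN, rose from a median of 18.8 CPM in the low set to 31.7 CPM in the high set and in 16 of 16 animals (0.95 ± 0.15, adjusted p = 0.000522). ID1 and ID2, which bind helix-loop-helix factors and keep them from DNA, rose to 21.1 CPM (0.98 ± 0.19, adjusted p = 0.00957) and 59.9 CPM (0.90 ± 0.20, adjusted p = 0.0357). FOSL2, another FOS family protein, missed the threshold with 0.72 ± 0.18 (adjusted p = 0.063), and MYC did so with 0.76 ± 0.30 (adjusted p = 0.41). ID2 rested partly on single animals: it lost the threshold in 12 of the 16 fits that left out 1 animal.

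**Figure D3:**
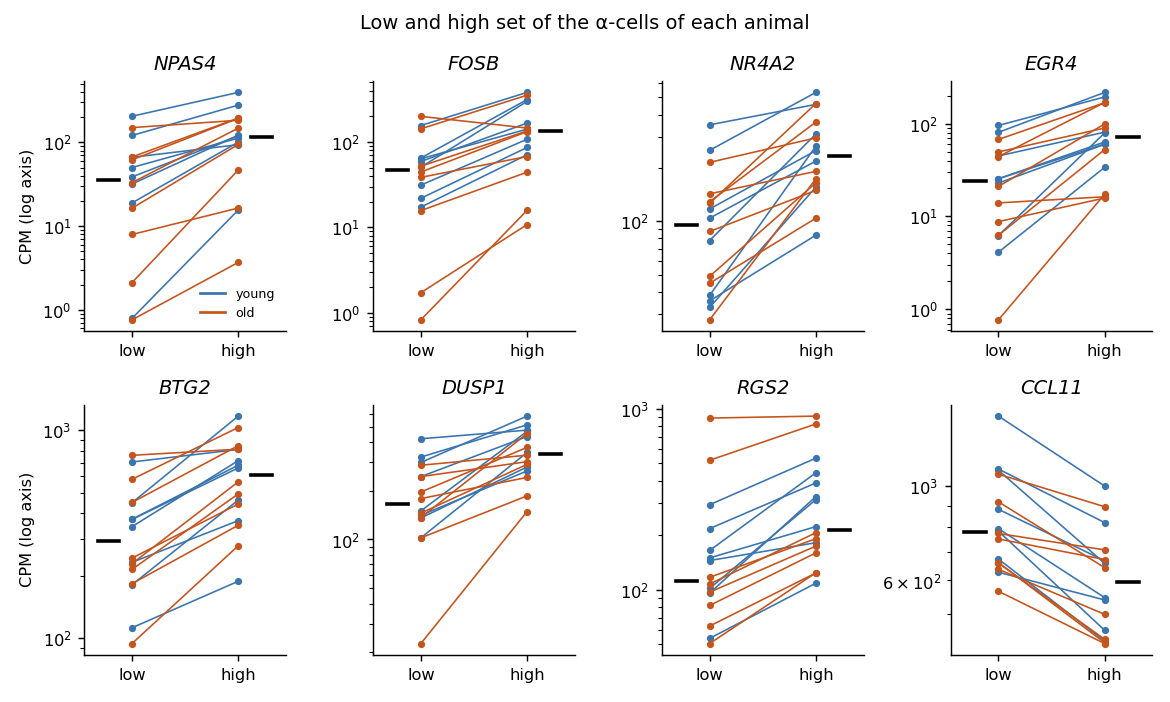
CPM (log axes) of 8 genes in the low and the high set of the α-cells of each animal, joined by a line (blue young, orange old); black bars are medians over the 16 animals. NPAS4, NR4A2, EGR4, BTG2, DUSP1 and RGS2 rise in 16 of 16 animals, FOSB in 15, and CCL11 falls in 16 of 16.

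Effectors that act on RNA and growth formed the next group. Of 27 listed genes 25 were held and 21 tested. Of these, 4 rose and none fell. Of the 18 that reached the filter in the low set alone 15 were positive, and their median log2 fold change was 0.40. BTG2, which recruits the enzymes that shorten poly(A) tails and slows proliferation, had 94.2, 294 and 759 CPM in the low set and 188, 613 and 1172 CPM in the high set (log2 fold change 0.92 ± 0.08 (SE), adjusted p = 4.05e-07, higher in 16 of 16 animals). ZFP36 (tristetraprolin), which binds AU-rich elements and speeds the decay of immediate-early and cytokine mRNAs, had 6.84, 71.2 and 138 CPM and 52.2, 128 and 273 CPM (log2 fold change 1.08 ± 0.16 (SE), adjusted p = 0.00037, 15 of 16 animals). GADD45B, a growth arrest protein, rose from a median of 297 CPM in the low set to 386 CPM in the high set (0.67 ± 0.09, adjusted p = 3.62e-05). BTG1, a relative of BTG2, rose least of the 4, from a median of 225 CPM in the low set to 296 CPM in the high set (0.39 ± 0.07, adjusted p = 0.00548). PER1, a clock gene that CREB also drives, had 81.3 and 111 CPM and missed the threshold (0.46 ± 0.11, adjusted p = 0.0639), although it was higher in 15 of 16 animals.

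Some genes that dampen MAPK and G-protein signals rose. Of 22 listed, all held, 14 were tested: 4 rose and none fell. Of the 10 that reached the filter in the low set alone 3 rose and 7 were positive, with a median of 0.44. DUSP1, a nuclear phosphatase that inactivates MAP kinases, had 22.7, 165 and 420.0 CPM in the low and 149, 339 and 580.2 CPM in the high set (log2 fold change 0.99 ± 0.13 (SE), adjusted p = 7.00e-05, higher in 16 of 16 animals). RGS2, which speeds the shut-off of Gq proteins, had 50.4, 112 and 889 CPM and 109, 215 and 911 CPM (log2 fold change 0.93 ± 0.10 (SE), adjusted p = 2.13e-06, higher in 16 of 16 animals), with OF2 the highest animal in both sets. DUSP5 rose from a median of 67.1 CPM in the low set to 101 CPM in the high set (0.60 ± 0.14, adjusted p = 0.0356), and DUSP2 from a median of 0.583 CPM in the low set to 4.59 CPM in the high set (2.005 ± 0.40, adjusted p = 0.0122). DUSP5 lost the threshold in 9 of the 16 fits without 1 animal. Of the list of cAMP and CREB targets, 23 listed, 20 held and 12 tested, 3 rose and none fell, with 8 positive of the 9 that reached the filter in the low set alone. The 3 were FOSB, NR4A2 and RGS2, already counted above, so that list adds no further gene.

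Together the 4 lists held 65 tested genes, of which 19 rose and none fell, and these 19 were 38% of all rising genes. Over all 11163 genes tested 50 rose, 0.448%. Of the 65 genes 49 reached the count filter in the low set alone, and 16 of those rose, against 46 of 8717 over all genes. The lists were chosen with earlier results of these data known, so these counts are a description. Further genes of signalling, outside the lists and named here after their values were seen, rose too. RASD1, a Ras-like G protein, had 50.9, 179.6 and 627 CPM in the low and 53.8, 324 and 864 CPM in the high set and was higher in 16 of 16 animals (log2 fold change 0.78 ± 0.09 (SE), adjusted p = 3.18e-06). ETV3, a repressor of the ETS family, rose from a median of 6.30 CPM in the low set to 12.2 CPM in the high set (0.98 ± 0.22, adjusted p = 0.0266), and ELF4, another ETS factor, from a median of 349 CPM in the low set to 412 CPM in the high set (0.28 ± 0.05, adjusted p = 0.0019).

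Some genes of cell stress rose. No difference between the branches was tested. Of 23 heat shock genes 17 were held and tested: 3 rose and none fell, and 10 of the 15 that reached the filter in the low set alone were positive, with a median of 0.14. HSP90AA1, the inducible cytosolic HSP90, had 896, 1383 and 2354 CPM and 976, 1723 and 3154 CPM (log2 fold change 0.29 ± 0.04 (SE), adjusted p = 0.000522, higher in 15 of 16 animals). The small chaperones CRYAB and HSPB1 rose from a median of 58.8 CPM in the low set to 119.5 CPM in the high set (0.92 ± 0.17, adjusted p = 0.00637) and from a median of 313 CPM in the low set to 429.6 CPM in the high set (0.53 ± 0.11, adjusted p = 0.0132). HSPA8, the constitutive HSP70, was at 0.06 ± 0.03 (adjusted p = 0.682). For HSPB1 the young animals held an extreme value: YF3 differed by 2.04 on the log2 scale, against 0.20 to 1.06 in the other 7.

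In the ATF4 list of the integrated stress response, 26 listed and 19 tested, 2 rose and none fell, and 13 of the 15 that reached the filter in the low set alone were positive (median 0.09). PPP1R15A (GADD34), which brings a phosphatase to eIF2α and restarts translation, had 14.1, 55.1 and 169 CPM in the low and 20.4, 112 and 328 CPM in the high set (log2 fold change 0.98 ± 0.12 (SE), adjusted p = 1.37e-05, higher in 16 of 16 animals). DDIT3 (CHOP), a factor of the same response, rose from a median of 36.5 CPM in the low set to 55.1 CPM in the high set (0.75 ± 0.13, adjusted p = 0.00275). ATF4 itself had 149 and 177 CPM (0.16 ± 0.07, adjusted p = 0.507). Of the 20 ER chaperones and unfolded protein response genes tested none passed, with 10 positive and 10 negative. HSPA5 (BiP), their central chaperone, had 453 and 438 CPM (0.12 ± 0.07, adjusted p = 0.637), and HSP90B1 (GRP94) 924 and 831 CPM (-0.10 ± 0.05, adjusted p = 0.508).

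No gene passed among the 11 tested of 26 NF-kB and inflammatory genes (5 positive of the 8 that reached the filter in the low set alone, median 0.22) or the 12 tested of 14 p53 and arrest genes (3 of 9, median -0.07). NFKBIA, the inhibitor that NF-kB induces, had 0.22 ± 0.12, adjusted p = 0.614, and CDKN1A (p21) came nearest with 0.65 ± 0.16, adjusted p = 0.0689, higher in 13 of 16 animals. Of 10 hypoxia genes tested 1 rose, ADM, which encodes the peptide adrenomedullin (from a median of 3.79 CPM in the low set to 10.001 CPM in the high set, 1.73 ± 0.39, adjusted p = 0.0297), and 7 of the 8 that reached the filter in the low set alone were negative. ADM lost the threshold in 9 of the 16 fits without 1 animal. BNIP3 and PGK1, targets of hypoxia-inducible factors, had -0.10 ± 0.05, adjusted p = 0.567 and -0.11 ± 0.06, adjusted p = 0.647. The thioredoxin-binding arrestin TXNIP, raised by glucose in islet cells, and its relatives ARRDC3 and ARRDC4 did not pass (adjusted p = 0.857, 0.976 and 0.974). MT2, a metallothionein outside the lists that binds zinc and copper, rose from a median of 241 CPM in the low set to 473 CPM in the high set (0.80 ± 0.14, adjusted p = 0.00335), higher in 14 of 16 animals.

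Of the 50 rising genes, 25 stood in none of the lists, and 11 of the 50 carry only an Ensembl identifier. Whether JUN or another listed gene is among these 11 was not determined. The one with the largest change, ENSMFAG00000042314, had 28.1, 324 and 1109 CPM in the low set and 56.2, 575 and 1767 CPM in the high set (log2 fold change 1.06 ± 0.10 (SE), adjusted p = 5.44e-07, higher in 16 of 16 animals). ENSMFAG00000000455 had 53.02, 366 and 1342 CPM and 102, 686 and 1706 CPM (log2 fold change 0.96 ± 0.11 (SE), adjusted p = 4.70e-06, higher in 16 of 16). Among those with a symbol were cytoskeletal genes, the γ-actin gene ACTG1 (0.20 ± 0.05, adjusted p = 0.0357) and the α-tubulin gene TUBA4A (0.27 ± 0.05, adjusted p = 0.0112), and FAM46A, which encodes a poly(A) polymerase (0.42 ± 0.08, adjusted p = 0.00637).

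Several genes rose by less. IDO2, an enzyme of tryptophan breakdown, went from a median of 314 CPM in the low set to 419.6 CPM in the high set (0.30 ± 0.05, adjusted p = 0.00206), and EXO1, a DNA repair exonuclease, from a median of 49.0 CPM in the low set to 67.3 CPM in the high set (0.46 ± 0.09, adjusted p = 0.0128). The other endocrine cells held IDO2 too: its median over animals was 361 CPM in all α-cells, 123 CPM in β-cells and 204 CPM in δ-cells. Whether reads were counted by strand is not given in the sources used here, so transcripts of other genes that overlap these cannot be told apart. ANKRD35 (0.28 ± 0.06, adjusted p = 0.0133), ECE1, the endothelin-converting enzyme (0.29 ± 0.06, adjusted p = 0.0237), FAM161B (0.39 ± 0.09, adjusted p = 0.0432) and TSPYL2, a nucleosome assembly protein (0.46 ± 0.10, adjusted p = 0.0188), had differences of a like size. ECE1 passed in 4 of 16 alternatives, and FAM161B and ACTG1 lost the threshold in 13 and 11 of the 16 fits without 1 animal.

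The 5 genes that fell were CCL11, CBX1, RPL7, SCG3 and SCG5. CCL11, which encodes the chemokine eotaxin, had 566, 779 and 1461 CPM in the low set and 426, 595 and 1000 CPM in the high set and was lower in 16 of 16 animals (log2 fold change -0.46 ± 0.05 (SE), adjusted p = 2.58e-06). In 15 of 16 animals it fell in order from the low through the middle to the high set. β-cells held 444 CPM and δ-cells 356 CPM of CCL11 at the median, against 672 CPM in all α-cells. As for IDO2, transcripts of other genes that overlap CCL11 cannot be told apart. CBX1, the chromatin protein HP1β, went from a median of 93.1 CPM in the low set to 71.3 CPM in the high set (-0.39 ± 0.09, adjusted p = 0.0472, lower in 14 of 16 animals), and it passed in 1 of 16 alternatives. RPL7, a protein of the large ribosomal subunit, was lower in 16 of 16 animals (-0.15 ± 0.03, adjusted p = 0.0199).

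Cargo of the secretory granule held 2 of the 5. All 13 listed genes were tested, 2 fell, none rose and 9 were negative, with a median of -0.08 (-0.02 without TMM scaling). SCG5 (7B2), the chaperone of the prohormone convertase PCSK2, had 5003, 6764 and 9631 CPM in the low and 4699, 6248 and 8784 CPM in the high set (log2 fold change -0.13 ± 0.03 (SE), adjusted p = 0.0151, lower in 13 of 16 animals). SCG3, a granin that sorts hormone into granules, had 1979, 3517 and 5140 CPM and 1886, 3058 and 4218 CPM (log2 fold change -0.16 ± 0.03 (SE), adjusted p = 0.0168, lower in 13 of 16 animals). CPE, the carboxypeptidase that trims prohormones, went from a median of 1940 CPM in the low set to 1726 CPM in the high set and missed the threshold (-0.13 ± 0.03, adjusted p = 0.063), lower in 15 of 16 animals. GCG belongs to the same list (-0.19 ± 0.05, adjusted p = 0.104). SCG3, SCG5 and RPL7 lost the threshold without YF2, where 1 gene, CCL11, remained of those that fell. The fall of these genes went with the lower α-marker and higher INS and PPY level of the high set given above. The part of those levels in the fall was not tested. In the purer α-cells described later SCG3 and SCG5 did not pass, while INS and PPY stayed higher in the high set.

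None of the 23 tested α-cell identity genes passed, and 14 of them were negative (median -0.05, or 0.01 without TMM scaling). TTR, transthyretin, one of the most abundant α-cell transcripts, went from a median of 81758 CPM in the low set to 73332 CPM in the high set (-0.14 ± 0.04, adjusted p = 0.197). TSPAN12, a tetraspanin enriched in α-cells, came nearest (-0.19 ± 0.05, adjusted p = 0.0666, lower in 14 of 16 animals), and TM4SF4 had -0.09 ± 0.04, adjusted p = 0.473. None of 25 exocytosis and excitability genes passed, with 18 positive. Of these the calcium channel subunits CACNA1A (0.39 ± 0.11, adjusted p = 0.142) and CACNA1H (0.39 ± 0.13, adjusted p = 0.297) came nearest, and ABCC8, a subunit of the ATP-sensitive potassium channel, had 0.06 ± 0.04, adjusted p = 0.713. None passed among 14 genes of cholesterol synthesis (9 positive) or 18 of glycolysis and the TCA cycle (7 positive). GAPDH, a glycolytic enzyme, had -0.07 ± 0.03, adjusted p = 0.523.

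The 3 large groups of housekeeping genes lay slightly below the rest with 1 gene past the threshold. Of 53 ribosomal protein genes 50 were negative, 1 fell (RPL7) and the median was -0.07. Of 43 nuclear-coded genes of the respiratory chain 35 were negative, none passed and the median was -0.05. Of 33 proteasome subunits 23 were negative, none passed and the median was -0.07. As examples, RPL5 had -0.12 ± 0.03, adjusted p = 0.142, NDUFB4 of complex I -0.12 ± 0.04, adjusted p = 0.316 and PSMB6 of the proteasome core -0.22 ± 0.07, adjusted p = 0.236. With library sizes not scaled by TMM the median of all genes moved from 0.01 to 0.07, and the medians of these 3 groups to -0.02 (33 of 53 negative), 0.01 (21 of 43) and -0.02 (18 of 33), so the direction relative to 0 depends on the scaling and flips for the respiratory chain. With the size factors of DESeq2 the medians were -0.08, -0.06 and -0.08.

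**Figure D4:**
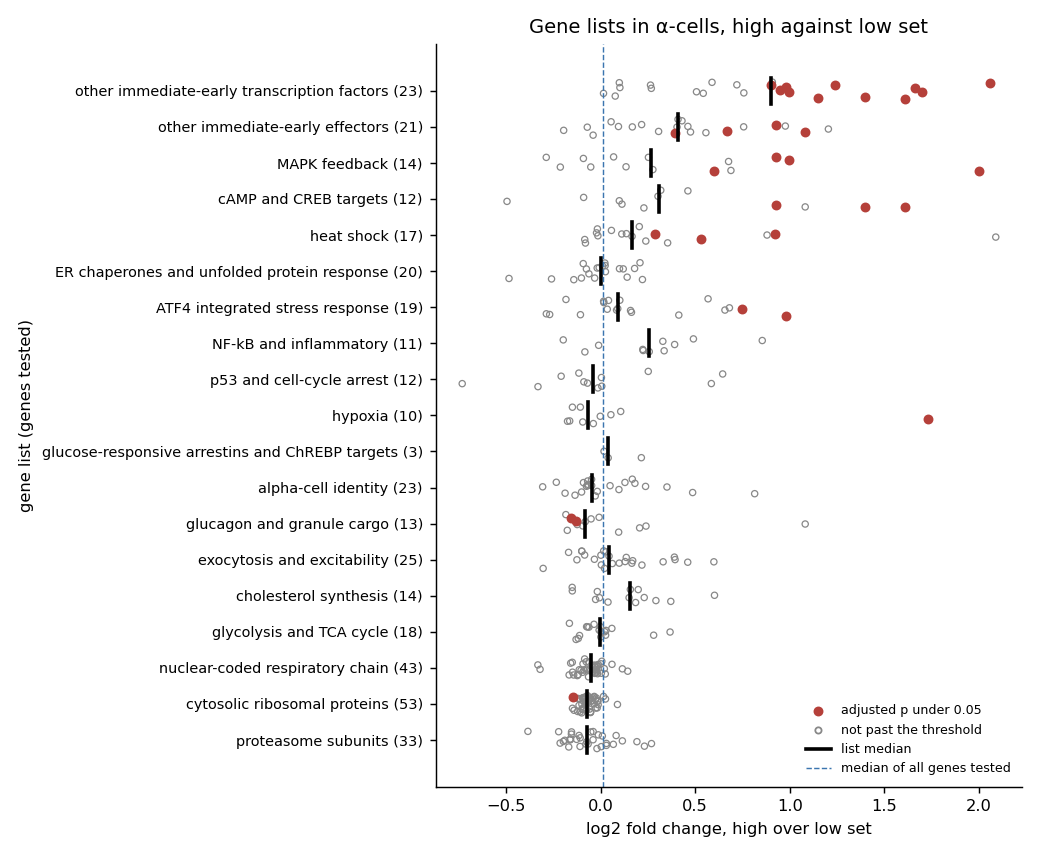
Log2 fold change of high over low set (x axis) of every tested gene of the 19 lists (rows, number tested in brackets); filled red points passed the adjusted threshold of 0.05, open points did not, black bars are list medians and the dashed line is the median of all 11163 genes. The upper 4 lists, of immediate-early and feedback genes, hold 65 of the 11163 genes tested and 19 of the 50 rising genes. The ribosomal, respiratory and proteasome lists crowd just below 0.

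Whether the difference between the sets depended on age or on sex was tested through an interaction in the fit over all animals. For age no gene passed (edgeR's quasi-likelihood test, 0 genes past the threshold, 413 of 11163 at an unadjusted p under 0.05, DESeq2 0). For sex no gene passed either (0 genes, 378 at an unadjusted p under 0.05, DESeq2 0). With no filter on low counts 5 genes passed for age and 1 for sex. Among the 55 genes called above, 9 had an unadjusted age interaction p under 0.05 and 3 a sex interaction p under 0.05. The smallest were those of MT2 for age (interaction log2 -0.88, unadjusted p = 0.000624, edgeR adjusted p = 1) and of RASD1 for sex (0.46, unadjusted p = 0.00503, edgeR adjusted p = 0.999).

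The choice of score genes and of cells changed how many genes passed. Ranking on FOS, JUNB, ATF3 and EGR1 alone gave 44 rising and 5 falling genes, 39 and 4 of them shared with the 6-gene score. Ranking on NR4A1 and NR4A3 alone gave 33 and 4, with 22 and 1 shared. NPAS4, FOSB, EGR4, NR4A2, BTG2, DUSP1, RGS2, ZFP36, RASD1, GADD45B and CCL11 passed under both. Under the NR4A ranking EGR3, EGR2, HES1, KLF6, CSRNP1, PPP1R15A, MT2 and the heat shock genes CRYAB, HSPB1 and HSP90AA1 no longer passed. In the 2979 α-cells whose GCG was at least 10 times the next hormone, with 988 cells in each set, 18 genes rose and 1 fell, all of them among the 55. These included NPAS4, FOSB, EGR3, EGR4, NR4A2, BTG2, DUSP1, GADD45B, PPP1R15A, CSRNP1, RASD1, CRYAB and CCL11, and left out RGS2, ZFP36, IDO2, SCG3 and SCG5. In these purer cells INS, PPY and UMIs per cell were still higher in the high set, as given above. The 12 genes that passed in all 31 fits with the animal as a block were NPAS4, FOSB, EGR4, NR4A2, BTG2, DUSP1, GADD45B, RASD1, CCL11 and 3 genes with an Ensembl identifier only. Sets drawn within each library gave 44 rising and 4 falling genes, and cells thinned to equal depth 54 and 8.

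The same ranking was applied to the β-cells of the same animals, a comparison added after the α-cell results were seen. β-cells (INS at least 20000 CPM and 2 times the next hormone) secrete insulin. In the 15 animals with at least 15 of them, 1078 were ranked, with 354 in each of the outer sets and as few as 5 in a set of an animal. The score genes were much lower there. Median FOS was 1166 CPM in the α-cells and 195 CPM in the β-cells of these 15 animals, EGR1 707 and 172 CPM and NR4A1 709 and 120.2 CPM, each higher in α-cells in 15 of 15 animals. These are levels of genes that served as the rule and carry no test.

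Between high and low β-cells 3 genes rose, 0.0346% of 8660 tested, and 3 fell (edgeR's quasi-likelihood test, 589 at an unadjusted p under 0.05). The 3 that rose were hormones of other cell types, GCG (0.36 ± 0.05, adjusted p = 0.000717), PPY (1.16 ± 0.15, adjusted p = 0.000119) and SST (0.91 ± 0.17, adjusted p = 0.015). GCG in β-cells rose from a median of 16866 CPM in the low to 24184 CPM in the high set and in 15 of 15 animals, so the ranking of β-cells moved with GCG. The source of this GCG RNA and its part in the ranking were not tested. FXYD2, HMGB1 and SCG3 fell, where SCG3 fell by 0.28 ± 0.05 on the log2 scale (adjusted p = 0.0117). Of the 50 genes that rose in α-cells 45 were tested in β-cells: none passed, 38 were positive and 17 of these had an unadjusted p under 0.05, while 56.7% of all genes were positive. ZFP36 (1.36 ± 0.35, adjusted p = 0.273), BTG2 (0.78 ± 0.17, adjusted p = 0.118), EGR4 (1.26 ± 0.44, adjusted p = 0.578) and NPAS4 (0.61 ± 0.39, adjusted p = 0.821) were positive beyond their SE. CSRNP1 was at -0.29 ± 0.44, adjusted p = 0.949.

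The difference between the cell types was tested in one fit over both. Of 11410 genes 8 passed (among them CHL1, FXYD2, GCG, PAPPA2, TM4SF4, TSPAN12 and UBB, edgeR's quasi-likelihood test) and none of the 55 genes called in α-cells was among them. Of the 55 genes 23 had an unadjusted p under 0.05 for the difference, 41.8% against 5.98% of all genes (682 of 11410), and in 18 of the 23 the β-cell change was smaller or opposite. The 55 were called on their α-cell change, which enters this difference, so that share is a description. NPAS4 (unadjusted p = 0.00103), CSRNP1 (0.00544), RGS2 (0.00603), FOSB (0.029) and NR4A2 (0.0375) were among the 23, and none of these 5 passed the adjustment (edgeR's quasi-likelihood test, adjusted p = 0.347 to 0.791). CCL11 came nearest: it had -0.46 in α-cells and 0.12 ± 0.12 in β-cells (difference 0.57, adjusted p = 0.0897). NPAS4 differed by -1.31 between the types (adjusted p = 0.347).

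**Figure D5:**
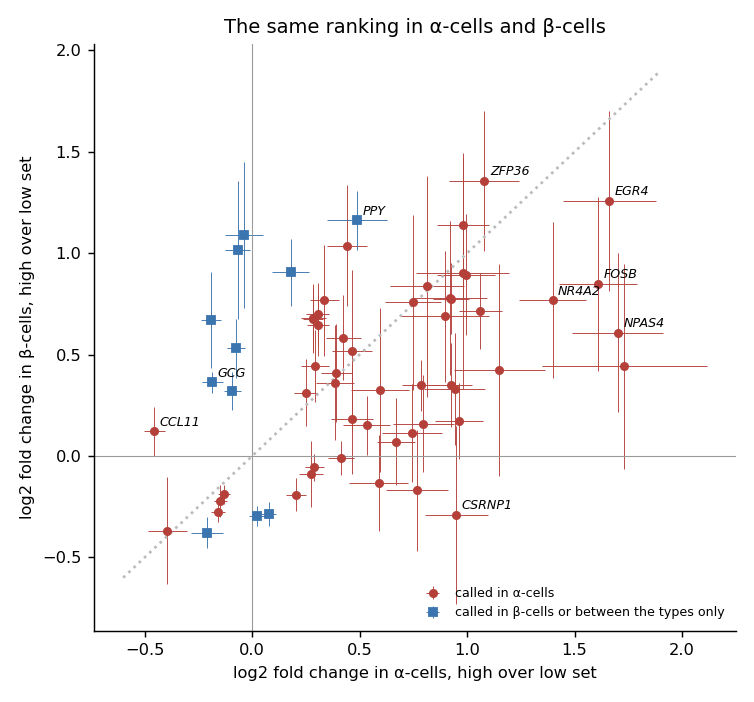
Log2 fold change of the high over the low set in α-cells (x axis) and in β-cells (y axis), with SE bars, for the genes called in α-cells and tested in β-cells (red circles) and the genes called in β-cells or between the types only (blue squares); the dotted line marks equal changes. Of 45 rising α-cell genes 38 lie above 0 in β-cells, and GCG and PPY lie above 0 in β-cells at 0.36 and 1.16.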

How the data were processed

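Per the labels and the study's methods, the authors trimmed the reads, aligned them with TopHat 2.0.12 to the Ensembl assembly Macaca_fascicularis_5.0 (base calls by CASAVA 1.8 per the processing notes), counted uniquely mapped reads per gene with HTSeq, collapsed reads that shared a UMI, and deposited the resulting counts as whole numbers for each gene in each cell, not normalized. Strand use was not given in the sources used here. The tables hold 21041 macaque genes, 5046 of them by Ensembl identifier only, and 95 spike-in rows, which were left out of CPM. Of 6141 cells in 64 libraries 5908 were retained, and no cell name occurred in more than 1 library. The authors' filter on mapping rate was not used and doublets were not called, but the hormone rule sets aside cells with a second hormone near GCG.

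Counts of a set were summed per animal. The sums went into a quasi-likelihood test of edgeR 4.0.16 under R 4.3.3 (filterByExpr, TMM, animal as a block, Benjamini-Hochberg over all genes tested). Log2 fold changes carry an SE from the fit, and CPM of the low and high set are scaled by TMM for genes tested with edgeR in α-cells. CPM of the score genes, the marker lists, the middle set, the β-cell sets and the cell types are not. Neither are the hormone levels given as medians over cells. Pairing by animal comes from the labels, since both sets hold cells of 1 animal. DESeq2 1.42.0 was the other tool. Interactions of set with age and with sex were tested in the same way. Cell measures were compared with an exact permutation test that flips the signs of the 16 animals' differences (scipy 1.17.1, pandas 2.3.3 and numpy 2.4.6 under Python 3.11.15, figures with matplotlib 3.10.9). The edgeR fit was also tried on counts simulated from the gene means and depths of these data, with an outcome not reported here. Other settings were no filter, no TMM, no animal block, sets within libraries or within 4 depth classes, thinning to 10000 UMIs (32 α-cells too shallow), a cut into 2 or 6 sets, a score of scaled genes, partial scores, GCG at least 10 times the next hormone, no cells above the 95th percentile of UMIs, no cells above the 90th percentile of an inflammatory score of 5 genes (4262 α-cells left), and each animal left out. Added after seeing the data were a repeat without cells high in spike-ins or mitochondrial RNA and the β-cell comparison.

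Named genes were the 12 largest rises and falls past an adjusted p of 0.05 with at least 10 CPM and 1 direction in at least 14 of 16 animals, in each list up to 4 genes of smallest p and, where fewer than 4 passed, the most abundant, and the hormones. Others were named after their values were seen, and a few genes the rule covers are not reported here. The members and lists were chosen with earlier results of these data known. UMIs per cell limit precision for sparse genes, and counting error is part of the spread between animals.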

Additional observations from a re-analysis of the deposited data

Results flagged for a closer look

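In the 8 young and in the 8 old animals, 130 sets of values were screened for an animal whose gap to the nearest other was above Dixon's critical ratio of 0.526 for 8 animals. Chance flags about 1 in 20 sets, and 12 of the 130 were found. Of these 12, 6 came from YM3. Its high and low sets differed by 0.902 in log2 UMIs per cell (the other 7 young animals -0.130 to 0.195), by 0.751 in log2 detected genes (0.0240 to 0.211) and by 0.620 at equal depth (-0.0065 to 0.110). They differed by -0.593 in log2 GCG CPM (-0.198 to 0.0307), by -0.453 for RPL7 (-0.219 to -0.0330) and by 4.07 for ID2 (0.450 to 2.02). Among young animals YF3 had a log2 difference of 2.04 for HSPB1 (0.204 to 1.06 in the others) and YM4 one of 1.75 for SST CPM (-0.227 to 0.606). Among old animals OF1 had -0.503 for SCG3 (-0.214 to 0.0447) and 0.680 for ECE1 (-0.0276 to 0.269), OF4 had 2.07 for ID2 (-0.273 to 0.785), and OF2 had -0.191 for 1 rising gene known by an Ensembl identifier only (0.0892 to 0.326). The cause of these values was not tested.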

How the results depend on the processing

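Of the 55 genes called, none changed direction in any alternative, and 12 passed in all 31 fits with the animal as a block. In the paired design, removing the replicate block left 0 rising and 0 falling genes. DESeq2 gave 87 rising and 21 falling genes, among them the 50 and 5. Falling genes numbered 19 with no filter on low counts, 1 without TMM, 8 with thinned cells, 11 with sets drawn within depth classes and 1 in the purer α-cells. Rising genes numbered 33 under the NR4A score and 18 in the purer α-cells. With 1 animal left out, 40 to 53 genes rose and 1 to 11 fell, with 1 without YF2, 3 without YM4 and 11 without YM3. For the interactions with age and with sex 0 genes passed with 1 animal left out, and 5 and 1 passed with no filter on low counts. UMIs per cell differed by -0.0037 on the log2 scale with depth classes, which equalize depth by construction. They differed by 0.0985 (unadjusted p = 0.0921, exact sign-flip test) with thinned cells. There the score and the sets were taken anew from the thinned counts, and the 32 shallowest α-cells were left out. Before adjustment over the measures, the spike-in share had p = 0.0209 within libraries (-0.172) and p = 0.0455 within depth classes (-0.137, exact sign-flip test). SST CPM had an unadjusted p = 0.000183 within libraries (0.699, same exact test). With 1 animal left out the mean differences ran from 0.108 to 0.177 for UMIs, 0.123 to 0.171 for detected genes, 0.0717 to 0.113 at equal depth, -0.121 to -0.0546 points for the spike-in share, -0.0394 to 0.0008 points for the mitochondrial share, -0.161 to -0.113 for GCG, 0.198 to 0.255 for INS, -0.272 to 0.528 for SST and 0.733 to 1.09 for PPY. On the summed counts GCG passed in 6 alternatives and without YM3, PPY in 4 and INS in 2. The cause of these changes was not tested. Sparse genes with few UMIs per animal are where depth limits most.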
